A study of Homo sapiens with 6 samples.

Results

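The HERV-K internal families other than HML-2 were taken as every RepeatMasker element in the LTR files whose name starts with HERVK and ends with -int, with HERVK-int itself left out. The rule gave 2291 elements of the 720177 LTR elements in the files. They belonged to 9 families, namely HERVK9 with 660 elements, HERVK22 with 429, HERVK14 with 372, HERVK3 with 310, HERVK11 with 288, HERVK14C with 80, HERVK13 with 65, HERVKC4 with 44 and HERVK11D with 43. RNA came from CHLA 02, CHLA 04, CHLA 05 as well as CHLA 06, which are AT/RT cell lines that were untreated and grown in serum-free medium with EGF, basic FGF and B-27. AT/RT is an embryonal brain tumor of children whose diagnosis rests most often on loss of SMARCB1, a subunit of the SWI/SNF chromatin remodeling complex. Earlier work that the study cites placed CHLA 06 in another group of AT/RT than the other 3 lines, with differences in DNA methylation among the grounds. There was 1 library of CHLA 02 and of CHLA 05, whereas CHLA 04 and CHLA 06 were each sequenced as 2 technical replicates. Every line was 1 biological sample, the spread between cultures was not measured, and no test between cell lines was possible. SMARCB1 transcripts were listed at 13.5 to 26.2 TPM over the 6 libraries, the neural stem cell marker NES at 5.21 to 27.6 TPM, and PAX6 at 0.604 and 0.937 TPM in the CHLA 06 replicates and at 15.8 to 36.9 TPM in the other lines. The study describes these lines as lacking SMARCB1 expression. A TPM summed over transcripts does not show whether an intact transcript or protein is made.

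Endogenous retroviruses descend from infections of the germ line, and an intact copy has gag, pro, pol and env genes between a pair of long terminal repeats (LTRs). RepeatMasker calls the part between the LTRs the internal sequence and gives it a name of its own. The letter K stands for lysine. It refers to a lysine tRNA that pairs with the primer-binding site just behind the 5′ LTR and starts reverse transcription. The name does not show that each group below uses that tRNA. The HERV-K supergroup is divided into HML groups. HML-2 (HERVK-int) is the youngest and has copies with intact reading frames, whereas the groups described here are older and mostly broken into fragments. Under the usual naming, HERVK14 is HML-1, HERVK9 is HML-3, HERVK13 is HML-4, HERVK22 is HML-5, HERVK3 is HML-6, HERVK11D is HML-7, HERVK11 is HML-8, HERVK14C is HML-9 and HERVKC4 is HML-10.

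The primer-binding position could be read in the reference genome at a selection of loci with reads. The locus with the most reads, chr5:1578347-1585091, is not among them. The windows are on GRCh38, in the direction of the element, and begin 20 bases before the element with the last bases of the LTR. Capitals mark 18 bases from the primer-binding position, found as the 8 bases nearest to TGGCGCCC, TGGTGCCC or TGGCACCC. For ERVK3-1, 30 bases are shown.
HERVK22 at ZNF638, chr2:71388627-71388706 (+): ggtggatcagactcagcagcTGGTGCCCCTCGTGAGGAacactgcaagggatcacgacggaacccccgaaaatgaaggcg
HERVK22 at GOLGA2P5, chr12:100164925-100165004 (-): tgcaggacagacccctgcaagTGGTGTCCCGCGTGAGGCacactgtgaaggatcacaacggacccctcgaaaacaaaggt
HERVK9 on chromosome 19, chr19:9454373-9454452 (+): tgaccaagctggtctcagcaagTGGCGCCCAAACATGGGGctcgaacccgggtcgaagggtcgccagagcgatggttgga
HERVK9 at ERVK9-11, chr19:38941267-38941346 (-): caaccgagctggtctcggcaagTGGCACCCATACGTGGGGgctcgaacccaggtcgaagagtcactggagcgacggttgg
HERVK9 at ACOT11, chr1:54630756-54630835 (+): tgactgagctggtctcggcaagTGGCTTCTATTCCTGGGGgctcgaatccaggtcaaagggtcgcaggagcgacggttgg
HERVK9 at LINC02732, chr11:110396712-110396791 (+): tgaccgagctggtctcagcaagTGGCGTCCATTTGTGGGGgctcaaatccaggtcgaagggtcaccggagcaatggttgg
HERVK3 at ERVK3-1, chr19:58306098-58306127 (+): gacaagTGGTGCCCGACCAGGGACctgaac
HERVK13 at ERVK13-1, chr16:2669465-2669544 (-): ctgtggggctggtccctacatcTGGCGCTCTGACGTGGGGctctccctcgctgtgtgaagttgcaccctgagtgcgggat
HERVK14 on chromosome 1, chr1:205858159-205858238 (+): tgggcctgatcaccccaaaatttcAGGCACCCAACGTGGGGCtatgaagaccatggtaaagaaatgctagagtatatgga
HERVKC4 on chromosome 6, chr6:27188051-27188130 (+): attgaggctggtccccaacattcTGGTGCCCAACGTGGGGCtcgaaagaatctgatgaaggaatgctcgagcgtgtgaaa

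In 5 of these windows the 8 bases are one of the 3 forms, in 4 they differ by 1 base, and at ACOT11 they differ by 3. Across the families, 584 elements had an LTR of their own family within 60 bp of their 5′ end, and 202 of them (34.6%) held one of the 3 forms in the 80 bases on the strand of the element, while 0 held one on the other strand. Of the 1707 elements without such an LTR, 5 held one. By family the share of LTR-adjacent elements with a form ran from 18.2% in HERVK3 and 27.4% in HERVK9 to 46.1% in HERVK22, 61.1% in HERVK14C and 85.7% in HERVKC4, the last being 6 of 7 elements. Over all members the share was 9.04%, against 0.402% of the 97024 other internal elements of the files, HERVK-int included, read in the same window. The share was alike in LTR-adjacent members with at least 10 reads in a library (16 of 46, 34.8%) and in those below (186 of 538, 34.6%). A match is a string of letters and not a tested binding site, and which tRNA would pair with it was not examined.

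Annotated exons ran across several of these junctions. On the strand of the element, GENCODE exons overlapped the window in 18 of 46 LTR-adjacent members with at least 10 reads (39.1%) and in 43 of 538 below that (7.99%). Reads of an exon can also count for the element it overlaps, so this contrast is in part built in. The same shares over all LTR-adjacent internal elements are not given here. In ZNF638 the exon chr2:71388623-71388723, annotated as coding, holds the primer-binding position of the HERVK22 copy. In ACOT11 the coding exon chr1:54630734-54630886 holds that of the HERVK9 copy. The lncRNA ERVK13-1 has an exon of 151 bases there and ERVK3-1 an exon of 129 bases in its untranslated region.

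The LTR elements held 355302 to 511408 reads in a library, and 43970 reads over the 6 libraries fell on the members. In bulk RNA, fewer cells that transcribe a copy and less RNA per cell cannot be told apart. Their share of the LTR reads was 1.58% in CHLA 02, 1.08% and 1.48% in the CHLA 04 replicates, 2.01% in CHLA 05, and 1.78% and 1.85% in the CHLA 06 replicates. The 95% Wilson interval was 1.55 to 1.62% in CHLA 02 and 1.96 to 2.05% in CHLA 05, which covers counting error only, here and throughout. CHLA 05 lay above every other library. The replicates of CHLA 04 lay 1.05 to 1.12% and 1.44 to 1.51%, so they differed by more than counting error, and differences of CHLA 04 from the other lines are read against that gap. HERVK-int, the HML-2 internal sequence, took 0.436% in CHLA 02, 0.216% and 0.211% in the CHLA 04 replicates, 0.532% in CHLA 05, and 0.641% and 0.796% in the CHLA 06 replicates. The older families together therefore held more reads than HML-2 in every library. Per kb of annotated sequence the order was the opposite, with 15.6 reads per kb over the members and 26.7 over HERVK-int.

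HERVK9, the HML-3 family, had the most reads, 18228 in all, and it was the family with the highest share in every library. Its share was 0.607% in CHLA 02, 0.416% and 0.580% in the CHLA 04 replicates, 0.720% in CHLA 05, and 0.852% and 0.863% in the CHLA 06 replicates, the highest of the 6. HERVK22 (HML-5) was at 0.306%, 0.223%, 0.257%, 0.482%, 0.352% and 0.368% in the same order, highest in CHLA 05. HERVK3 (HML-6) stayed between 0.183% and 0.288%, and HERVK13 (HML-4) between 0.121% and 0.210%. For both of these CHLA 04 replicate 1 was the lowest and CHLA 05 the highest, although the intervals of CHLA 05 and CHLA 02 overlapped.

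**Figure D1:**
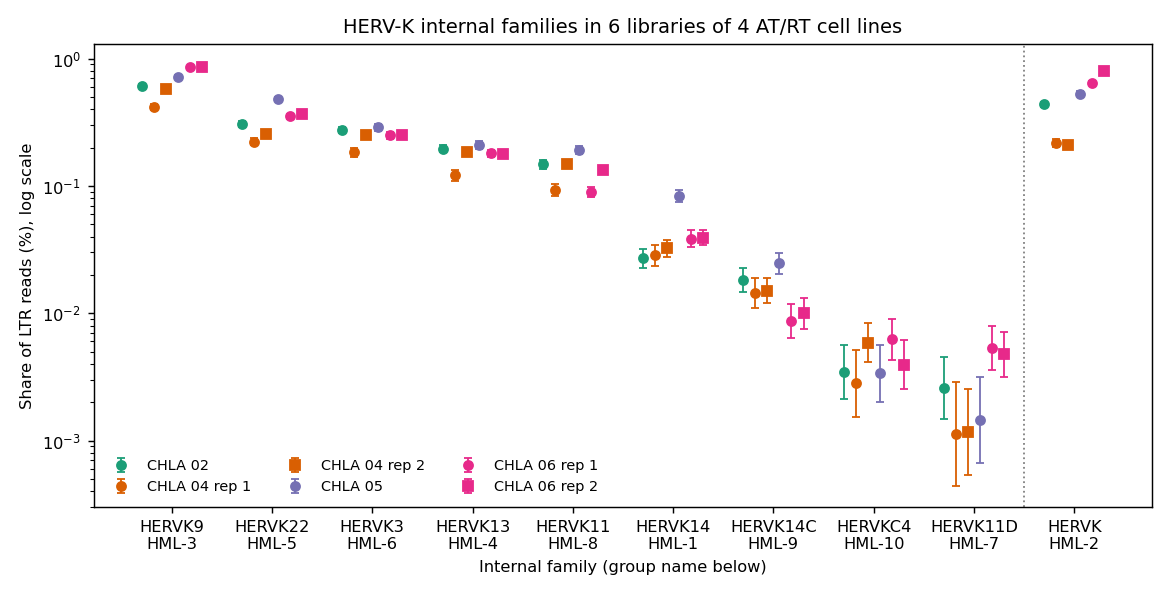
Share of the LTR reads of each library (y axis, percent, log scale) on each HERV-K internal family (x axis), with circles for single libraries and first replicates, squares for second replicates, and bars for 95% Wilson intervals. HERVK9 is the highest family in each library, HERVK14 in CHLA 05 stands apart at 0.0833%, and HERVKC4 and HERVK11D have wide intervals.

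HERVK11 (HML-8) was at 0.148% in CHLA 02, 0.0929% and 0.148% in the CHLA 04 replicates, 0.192% in CHLA 05, and 0.0896% and 0.133% in the CHLA 06 replicates. Its interval in CHLA 05, 0.179 to 0.206%, lay above that of each other library, while the libraries of the other lines overlapped in part. HERVK14 (HML-1) was at 0.0271%, 0.0284%, 0.0323%, 0.0833%, 0.0386% and 0.0393%. Its interval in CHLA 05, 0.0750 to 0.0926%, lay above that of each other library. HERVK14C (HML-9) ranged from 0.00869% and 0.00997% in the CHLA 06 replicates to 0.0246% in CHLA 05. HERVKC4 and HERVK11D had 10 to 30 and 4 to 24 reads per library. For HERVK11D the shares in CHLA 06 were 0.00535% and 0.00478%, with intervals of 0.00360 to 0.00796% and 0.00318 to 0.00717%. These overlapped the interval of CHLA 02, 0.00147 to 0.00451%, and lay above both of CHLA 04. Of the 8 families with at least 100 reads, 3 varied at least 2-fold between the highest and the lowest line (37.5%), namely HERVK14 at 3.08-fold, HERVK14C at 2.64-fold and HERVK22 at 2.01-fold. Over all internal families of the files with 100 reads the share was 42.3%, so the members were near that background. The call for HERVK22 rested on CHLA 04 replicate 1, and without CHLA 04 replicate 2 the count was 5 of 7 families.

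Most members had no read. Over the 6 libraries 1713 of the 2291 were at 0 reads, 433 had reads but fewer than 10 in each library, and 145 had at least 10 in a library. That is 6.33% of the members, against 2.76% of all LTR elements and 3.53% of all internal elements. At least 10 reads in every library were found for 57 members (2.49%), against 0.376% and 0.742%. The study took a noise threshold from the relation of the coefficient of variation to the mean, which was read here at the peak of the smoothed curve, after quantile normalization and with the higher of 2 technical replicates. Above that point, a TPM of 1.41, in at least 1 cell line were 414 members (18.1%), against 14.8% and 14.0%. Of these, 109 had no more than 1 read in any library, so the count of 10 reads is used below. The 145 elements carried 95.1% of the reads of the members. They had a median length of 1518 bp, against 578 bp for members without a read, and longer elements have more chance to collect reads.

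The reads were concentrated in few proviruses. When fragments of a family on 1 strand within 1000 bp were joined, the members formed 948 loci, of which 95 had at least 10 reads in a library and 37 had at least 10 in every library. The locus with the most reads took 12.1% of all reads of the members, the first 5 loci took 43.4%, the first 10 took 57.1% and the first 20 took 74.3%. HERVK-int was concentrated too. Counted by single elements, the first 10 took 44.7% of the reads of the 2291 members and 76.8% of those of the 245 HERVK-int elements. Of the 95 loci, 60 had a partner LTR on both sides, 16 had only the 5′ LTR, 10 had only the 3′ LTR and 9 had none. Where both were present, the 5′ LTR had more reads per base in 36 loci and the 3′ LTR in 24. No minimum of reads was set for the LTRs, and some of these calls rest on very few reads. At chr2:170112491-170119294, for example, the 5′ LTR had 3 reads in CHLA 06 replicate 1 and the 3′ LTR had 0. The split was not tested and does not show whether reads favor a side.

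The members with reads often overlapped annotated exons. Of the 145 elements 60 overlapped an exon (41.4%), against 13.7% of all LTR elements and 15.5% of internal elements with 10 reads. A further 52 lay in introns and 33 outside genes. Exon-overlapping elements held 58.3% of the reads of the members in CHLA 02, 59.7% and 57.2% in the CHLA 04 replicates, 56.8% in CHLA 05, and 57.5% and 52.4% in the CHLA 06 replicates. For all LTR elements the same share was 18.1 to 23.6%. Of the 145, 28 lay on chromosome 19 (19.3%), against 4.02% of all LTR elements and 5.63% of internal elements with 10 reads and 8.64% of all members. A gene with a ZNF symbol, the mark of zinc finger genes, held 21 (14.5%), against 4.41% of LTR elements and 5.34% of internal elements with 10 reads and 3.58% of all members. HERVK-int was also above these backgrounds. Of its 43 elements with 10 reads, 15 overlapped an exon (34.9%). On chromosome 19 lay 5 of the 43 (11.6%), and a gene with a ZNF symbol held 5 (11.6%). Element length was not adjusted for in these shares.

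**Figure D2:**
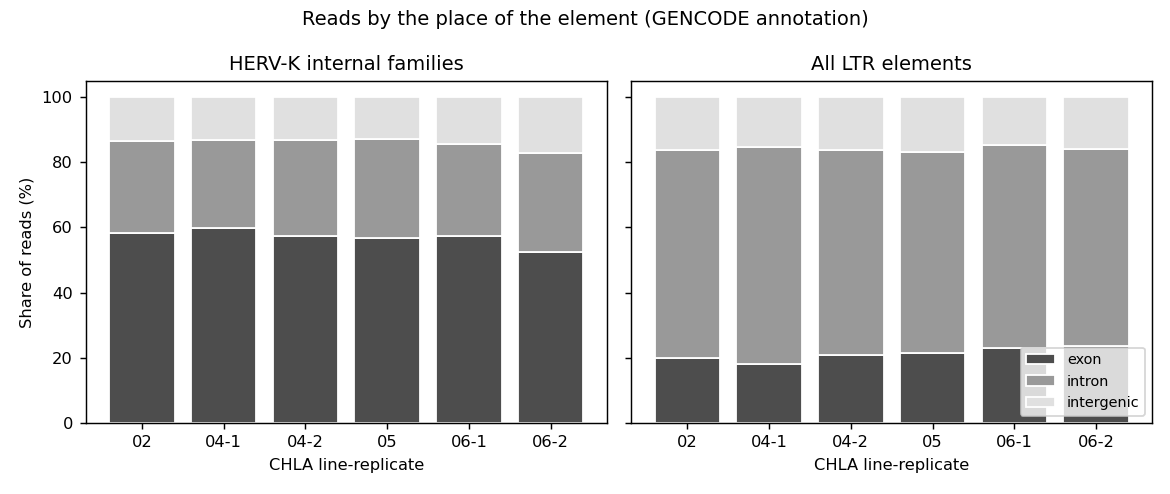
Share of reads (y axis, percent) on elements that overlap an exon, lie in an intron or lie outside genes, for the HERV-K internal families (left) and all LTR elements (right), in each library (x axis). Exon-overlapping elements take 52.4 to 59.7% of the reads on the left and 18.1 to 23.6% on the right.

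Elements with reads mostly pointed the way of their host gene. Of 87 members with 10 reads in genes of 1 strand, 78 lay on the same strand and 9 on the opposite strand (89.7% same), against 92.5% of all LTR elements and 88.8% of internal elements. Thus the share for members with reads was near the background of LTR elements. Among members without a read 178 were on the same strand and 366 on the opposite one. Over all members in genes of 1 strand these counts were 353 and 489. The same counts over all LTR elements are not given here, so this order is not shown to be particular to the members. The libraries were stranded, but whether the authors counted with strand is not given in the sources used here. For elements on the strand of the gene, reads that start in the host gene and in the provirus cannot be told apart with either way of counting. For elements on the opposite strand this depends on the counting.

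The 2 replicated lines set the error of single elements. Of the 102 members with at least 20 reads in a library, 20 differed at least 2-fold between the replicates of CHLA 04 (background 19.4% of LTR elements) and 17 between those of CHLA 06 (background 9.72%). The median ratio was 1.49 in CHLA 04 and 1.31 in the CHLA 06 replicates. HERVK11 fragments with near copies on chromosome 8 stood out here. For 8 of the 102, over 50% of their windows of 100 bases occur elsewhere in the genome without a difference, and 5 of the 8 differed 2-fold in CHLA 04 and 7 of the 8 in CHLA 06. Among the other 94 elements these counts were 15 and 10. All 8 were HERVK11 fragments of the loci chr8:7153847-7158775, chr8:8128700-8133612 and chr8:12532071-12536983. Fragments of 1 locus are not independent, so the contrast describes these loci and not repeated copies in general. How reads that fit several places were assigned is not given in the sources used here.

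The first 4 ranks by reads were held by 1 provirus each of HERVK9, HERVK22, HERVK13 and HERVK3, and each had reads in every library. The HERVK9 locus chr5:1578347-1585091 lies within the spans of the pseudogene SDHAP3 and the lncRNA ENSG00000291055 and held 29.3% of the HERVK9 reads. Its reads were 724 in CHLA 02, 329 and 769 in the CHLA 04 replicates, 1246 in CHLA 05, and 1032 and 1238 in the CHLA 06 replicates. The longest fragment, chr5:1581574-1584921, was at 134 TPM in CHLA 02, 81.0 and 124 TPM in the CHLA 04 replicates, 245 TPM in CHLA 05, and 177 and 213 TPM in the CHLA 06 replicates. These TPM values refer to LTR reads only and do not compare with gene TPM. CHLA 05 and CHLA 06 lay above CHLA 02 and CHLA 04 in that fragment, and the fragment chr5:1579846-1580839 had the same order, with 128 TPM, 71.2 and 151 TPM, 294 TPM, and 256 and 275 TPM. SDHAP3, a copy of the gene for the flavoprotein subunit of succinate dehydrogenase, did not follow them, at 7.13, 18.4, 5.93, 9.40, 8.27 and 6.85 TPM on the gene scale.

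The HERVK22 provirus chr2:71388647-71395356 is 1 element of 6710 bp in ZNF638 and held 47.3% of the HERVK22 reads. ZNF638 encodes a zinc finger protein, also called NP220, that is known for recruiting the HUSH complex to silence unintegrated retroviral DNA. The element had 714 reads in CHLA 02, 470 and 671 in the CHLA 04 replicates, 925 in CHLA 05, and 709 and 708 in the CHLA 06 replicates. In TPM it was at 106 in CHLA 02, 91.7 ± 2.57 (SD over 2 technical replicates) for CHLA 04, 152 for CHLA 05 and 105 ± 5.01 (SD over 2) for CHLA 06. CHLA 05 was above the others by more than the spread of replicates, and the gene ZNF638 was also highest there, at 326 TPM against 223 to 276 TPM. The element overlaps annotated exons of ZNF638, so the same reads can count for both. No window of 100 bases of this element occurs elsewhere in the genome.

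The HERVK13 provirus chr16:2661288-2669524 lies in ERVK13-1, a lncRNA named after it, and held 86.4% of the HERVK13 reads. The fragment of 7086 bp was at 103 TPM in CHLA 02, 81.1 ± 19.3 TPM (SD over 2 technical replicates) for CHLA 04, 104 TPM for CHLA 05 and 94.0 ± 1.84 TPM (SD over 2) for CHLA 06. These lines did not differ beyond the replicates of CHLA 04. Its longest frame from an ATG has 482 codons. The gene, listed as CTD-2270P14.1, was at 21.0 TPM in CHLA 02, 29.4 and 27.3 TPM in the CHLA 04 replicates, 27.3 TPM in CHLA 05, and 14.4 and 12.8 TPM in the CHLA 06 replicates.

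The HERVK3 provirus chr19:58306118-58314839 is the source of ERVK3-1, the only gene of the transcript files with a symbol starting with ERVK, and held 60.2% of the HERVK3 reads. GENCODE places a coding sequence of ERVK3-1 on the fragment chr19:58311249-58313278. That fragment was at 107 TPM in CHLA 02, 93.4 and 139 TPM in the CHLA 04 replicates, 117 TPM in CHLA 05, and 111 and 99.6 TPM in the CHLA 06 replicates. With a ratio of 1.11 between the highest and the lowest line it varied least among the 102 elements with 20 reads, although the replicates of CHLA 04 lay wide apart. ERVK3-1 itself was at 24.6, 26.8, 40.4, 29.6, 21.6 and 29.1 TPM. The 5′ and 3′ LTR of this provirus, both LTR3 and of 431 and 428 bp, differed widely, with 2, 2, 6, 1, 2 and 4 reads on the first and 98, 61, 156, 76, 132 and 142 on the second.

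**Figure D3:**
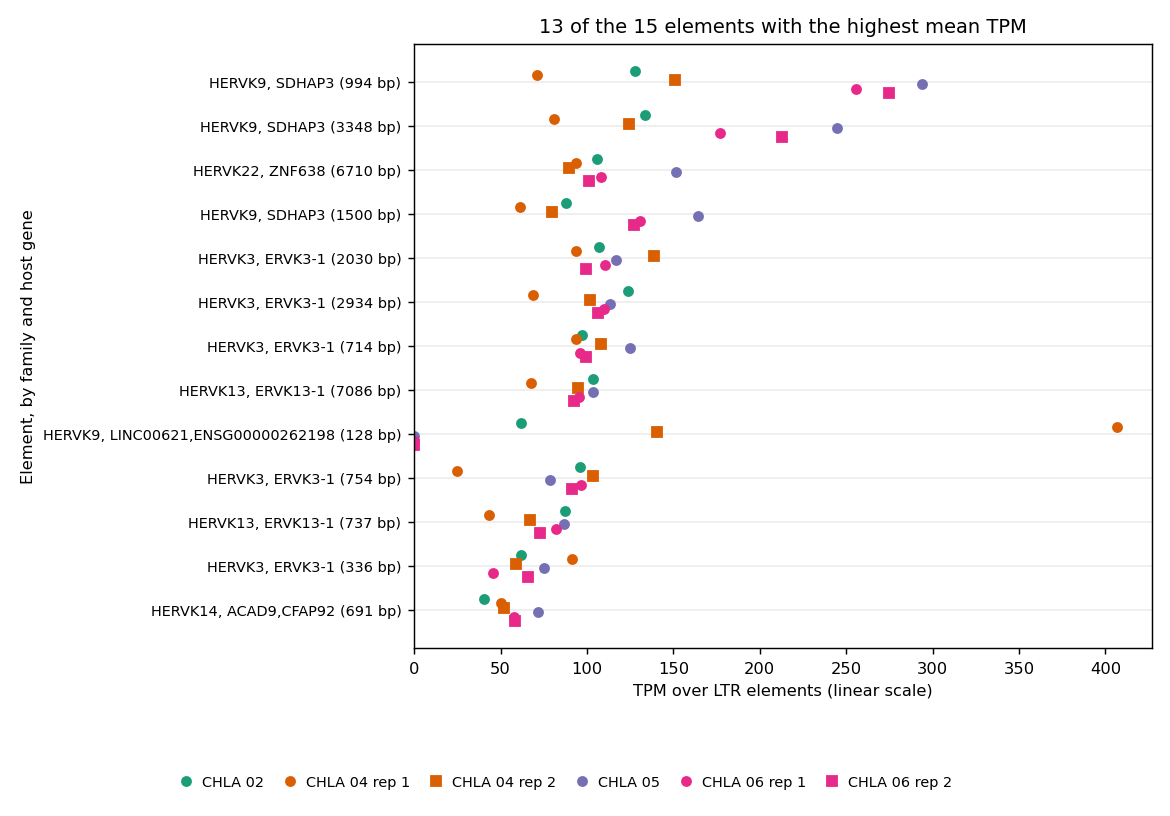
TPM over LTR elements (x axis, linear) of 13 of the 15 members with the highest mean over the 4 lines (y axis, with family, host gene and length), with 1 point for each of the 6 libraries. Several fragments at ERVK3-1 and ERVK13-1 are lowest in CHLA 04 replicate 1, those at SDHAP3 are higher in CHLA 05 and CHLA 06, and the short HERVK9 fragment of 128 bp is at 0 in CHLA 05 and CHLA 06.

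Other elements with a high mean TPM lay in the ACAD9 gene and on chromosome 13. In ACAD9 this was the intronic HERVK14 fragment chr3:128921368-128922058. It was at 40.2 TPM in CHLA 02, 50.2 and 52.0 TPM in the CHLA 04 replicates, and 71.6 TPM in CHLA 05. In the CHLA 06 replicates it was at 57.8 and 58.3 TPM. The HERVK14 fragment chr3:128922808-128923595 overlaps the untranslated region of ACAD9, an assembly factor of respiratory complex I, and also lies in CFAP92 on the other strand. It had the most reads of HERVK14, 26 in CHLA 02, 32 and 37 in the CHLA 04 replicates, 53 in CHLA 05, and 44 and 41 in the CHLA 06 replicates.

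Further proviruses with many reads, chosen after their values were seen, were spread over several families. HERVK9 copies at XYLB (chr3:38421255-38426758) had 205, 126, 270, 169, 239 and 319 reads, in the usual order of libraries. The copy at TMCC1-DT (chr3:129901749-129906802) had 184, 79, 160, 171, 299 and 366, highest in both CHLA 06 libraries. A HERVK22 copy lies in PPHLN1, which encodes periphilin, a subunit of HUSH. At chr12:42442666-42446699 it had 174, 74, 273, 265, 210 and 235 reads. Outside any annotated gene, the HERVK22 copy chr6:57070345-57074287 had 175, 63, 113, 172, 197 and 325 reads, and the HERVK9 copy chr4:176344247-176350257 had 55, 34, 88, 128, 189 and 139. The 5′ LTR of the provirus at ERVK9-11 (chr19:38935674-38941326) had more reads than its 3′ LTR, with 144 against 5 in CHLA 02 and 184 against 21 in CHLA 06 replicate 1.

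Of the 102 members with 20 reads in a library, 38 varied at least 4-fold between the highest and the lowest line (37.3%), when levels under 3 reads over a line were set to 3 reads. Over all LTR elements the share was 59.7% and over internal elements 57.6%, so the members varied less often than that background. The median ratio was 2.93 for the members and 6.32 for all LTR elements with 20 reads. HERVK-int was on the other side of the background, with 20 of 28 elements (71.4%). By family the 4-fold count was 15 of 41 in HERVK9, 8 of 18 in HERVK22, 8 of 15 in HERVK11, 4 of 17 in HERVK3, 2 of 2 in HERVK14C, 1 of 4 in HERVK14 and 0 of 5 in HERVK13. The highest line was CHLA 05 for 16 of the 38, CHLA 06 for 15, CHLA 02 for 5 and CHLA 04 for 2. Of all 102 it was CHLA 05 for 40, CHLA 06 for 32, CHLA 02 for 18 and CHLA 04 for 12. The same split over all LTR elements is not given here. Fragments in 1 host gene count separately, as in ENSG00000286619 and GOLGA2P5. At 50 reads in place of 20 the share that varied 4-fold was 29.6%, against 67.1% of LTR elements. The 12 with the largest ratios had ratios of 20.3 to 64.7 and came from 6 places.

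The HERVK9 provirus chr1:54630776-54635753 in ACOT11, which encodes an acyl-CoA thioesterase of fat metabolism, was read in CHLA 02 and CHLA 06. Its fragment of 2916 bp, whose junction is printed above, had 108 reads in CHLA 02, 0 and 0 in the CHLA 04 replicates, 3 in CHLA 05, and 132 and 85 in the CHLA 06 replicates. That was 36.8 TPM in CHLA 02, 1.13 TPM in CHLA 05, and 46.4 and 27.9 TPM in the CHLA 06 replicates, and the level was at least 64.7-fold higher in CHLA 06 than in CHLA 04, where the floor of 3 reads was used. The fragment of 752 bp, which overlaps the untranslated region of ACOT11, had 51, 1, 0, 1, 49 and 41 reads. ACOT11 had the same high lines, at 22.7 TPM in CHLA 02, 0.194 and 0 TPM in the CHLA 04 replicates, 1.6 TPM in CHLA 05, and 39.0 and 33.6 TPM in the CHLA 06 replicates. The 2 high lines and the 2 low lines did not overlap in the element or in the gene. Both fragments overlap annotated exons of ACOT11, so the same reads can count for element and gene. On the provirus's LTRs of the MER9a1 type, the 3′ copy had 29, 0, 0, 1, 40 and 19 reads and the 5′ copy 3, 0, 0, 0, 0 and 3.

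The lncRNA ENSG00000286619 on chromosome 1 holds pieces of 3 families that were read mainly in CHLA 05. The HERVK14 fragment chr1:205858179-205862406 had 5 reads in CHLA 02, 7 and 6 in the CHLA 04 replicates, 171 in CHLA 05, and 1 and 9 in the CHLA 06 replicates, and was at 44.5 TPM in CHLA 05. The HERVK14C fragment chr1:205862751-205864227 had 0, 2, 2, 36, 1 and 3 reads. The HERVK9 fragments chr1:205891198-205893986 and chr1:205894217-205895642 had 38 and 46 reads in CHLA 05 and at most 3 in any other library. The HERVK14 locus supplied 175 of the 345 HERVK14 reads of CHLA 05, so the high share of that family in CHLA 05 lay in large part at this place. The transcript files list no transcript of this gene under that identifier.

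A HERVK22 provirus in GOLGA2P5, a pseudogene of the Golgi matrix protein gene GOLGA2, was also highest in CHLA 05. Over the locus chr12:100159855-100164984 the reads were 26 in CHLA 02, 13 and 35 in the CHLA 04 replicates, 350 in CHLA 05, and 15 and 27 in the CHLA 06 replicates. Its fragment chr12:100164249-100164984 was at 5.4 TPM, 5.44 and 2.44 TPM, 109 TPM, and 5.57 and 9.12 TPM in the same order. GOLGA2P5 was at 26.7 TPM in CHLA 05 and at 1.01 to 3.37 TPM in the other libraries, so element and gene had the same high line. The annotated exon chr12:100163242-100166176 covers that fragment. Its reads can count for both, so this match is in part built in. The 5′ LTR, LTR22B1, had 48 reads in CHLA 05 and 4 to 9 elsewhere.

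**Figure D4:**
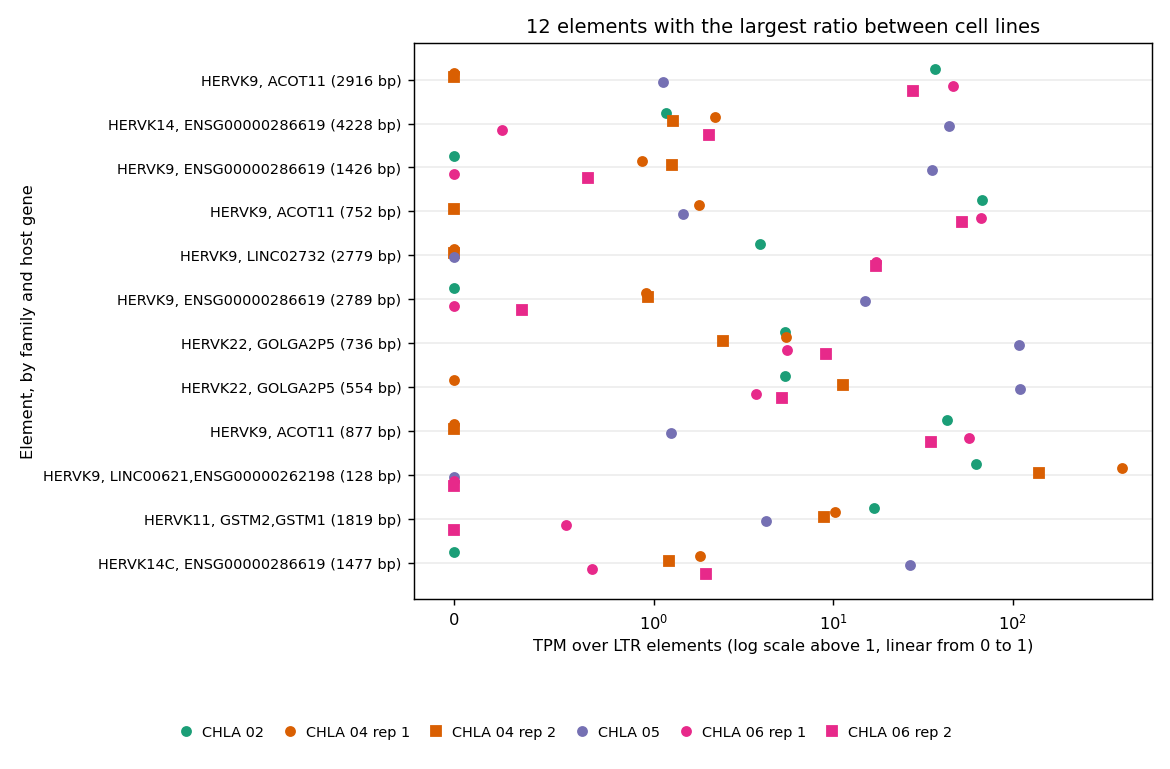
TPM over LTR elements (x axis, log scale above 1 and linear from 0 to 1) of the 12 members with the largest ratio between cell lines (y axis, with family, host gene and length), with 1 point for each of the 6 libraries. CHLA 05 is alone on the right in the ENSG00000286619 and GOLGA2P5 elements, CHLA 02 and CHLA 06 in the ACOT11 elements.

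Other line-variable members had other high lines. In LINC02732 the HERVK9 fragment chr11:110396732-110399510 was at 3.93 TPM in CHLA 02, 0 in CHLA 04 and CHLA 05, and 17.3 and 17.2 TPM in the CHLA 06 replicates. The gene was at 0.477 TPM in CHLA 02, 3.75 and 5.23 TPM in the CHLA 06 replicates and 0 elsewhere. On chromosome 13 the HERVK9 fragment chr13:22903452-22903579, of 128 bp, had 8 reads in CHLA 02, 39 and 20 in the CHLA 04 replicates, and 0 in CHLA 05 and CHLA 06. It overlaps an exon of ENSG00000262198, which was at 0.256 TPM in CHLA 02, 2.83 and 1.73 TPM in the CHLA 04 replicates, and 0 in the other libraries. Reads of that exon can count for both. The MER9a1 LTR that adjoins its 5′ end, of 490 bp, held far more reads, 377 in CHLA 02, 423 and 527 in the CHLA 04 replicates, 0 in CHLA 05, and 1 and 0 in the CHLA 06 replicates, so that CHLA 02 was closer to CHLA 04 on the LTR than on the fragment. The TPM of this short element, 407 and 140 in the CHLA 04 replicates, differed 2.90-fold between replicates.

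The HERVK11 fragment chr1:109706704-109708522 overlaps exons of GSTM1 and GSTM2, neighbouring genes for glutathione S-transferases of detoxification. It had 31 reads in CHLA 02, 14 and 18 in the CHLA 04 replicates, 7 in CHLA 05, and 1 and 0 in the CHLA 06 replicates. GSTM1 was likewise near 0 in CHLA 06, at 0.386 and 0.114 TPM, against 35.7 TPM in CHLA 02, 95.1 and 67.1 TPM in the CHLA 04 replicates and 66.3 TPM in CHLA 05. GSTM2 was at 53.8 and 27.2 TPM in the CHLA 06 replicates and at 41.2 to 117 TPM in the other lines. The element and GSTM1 shared the low line but not the high one. Reads of the overlapped exons can count for both.

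Several families had their most abundant element at a place of its own. For HERVK14C it was chr1:247108728-247110303, with 36 reads in CHLA 02, 20 and 33 in the CHLA 04 replicates, 32 in CHLA 05, and 4 and 1 in the CHLA 06 replicates. This element overlaps exons of ENSG00000286747 and, on the other strand, LINC02897. CHLA 06 was below the other lines without overlap, and the longest frame from an ATG has 348 codons. For HERVK11 it was chr19:27705508-27712211 in an intron of LINC00662, with 171, 55, 54, 158, 19 and 15 reads. CHLA 06 was again lowest, at 2.90 and 2.14 TPM against 25.3 TPM in CHLA 02 and 25.9 TPM in CHLA 05, while LINC00662 itself ranged only from 22.6 to 42.9 TPM.

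For HERVK11D the element with the most reads was chr2:170616558-170618535, with 4 reads in CHLA 02, 0 in CHLA 04 and CHLA 05, and 19 and 9 in the CHLA 06 replicates. It lies in an intron of MYO3B, a myosin gene, on the opposite strand. MYO3B was at 7.83 TPM in CHLA 02, 21.4 and 21.0 TPM in the CHLA 06 replicates, and 0 to 0.213 TPM in CHLA 04 and CHLA 05. So the element and its gene had the same order of lines although they point in opposite directions. For HERVKC4 it was chr6:27188071-27190816 outside any gene, with 6, 6, 17, 5, 18 and 14 reads.

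HERVKC4 takes its name from the complement genes C4A and C4B, whose long forms carry a copy in an intron on the opposite strand. The copy in C4A, chr6:31985242-31990504, had 1 read in CHLA 02 and 0 in the other libraries, and the copy in C4B, chr6:32017980-32023242, had 0 in each library. Every window of 100 bases in both copies occurs elsewhere in the genome. C4A was at 4.54 to 12.3 TPM and C4B at 0.233 to 5.87 TPM on the gene scale, so reads of the host genes were present in all libraries.

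**Figure D5:**
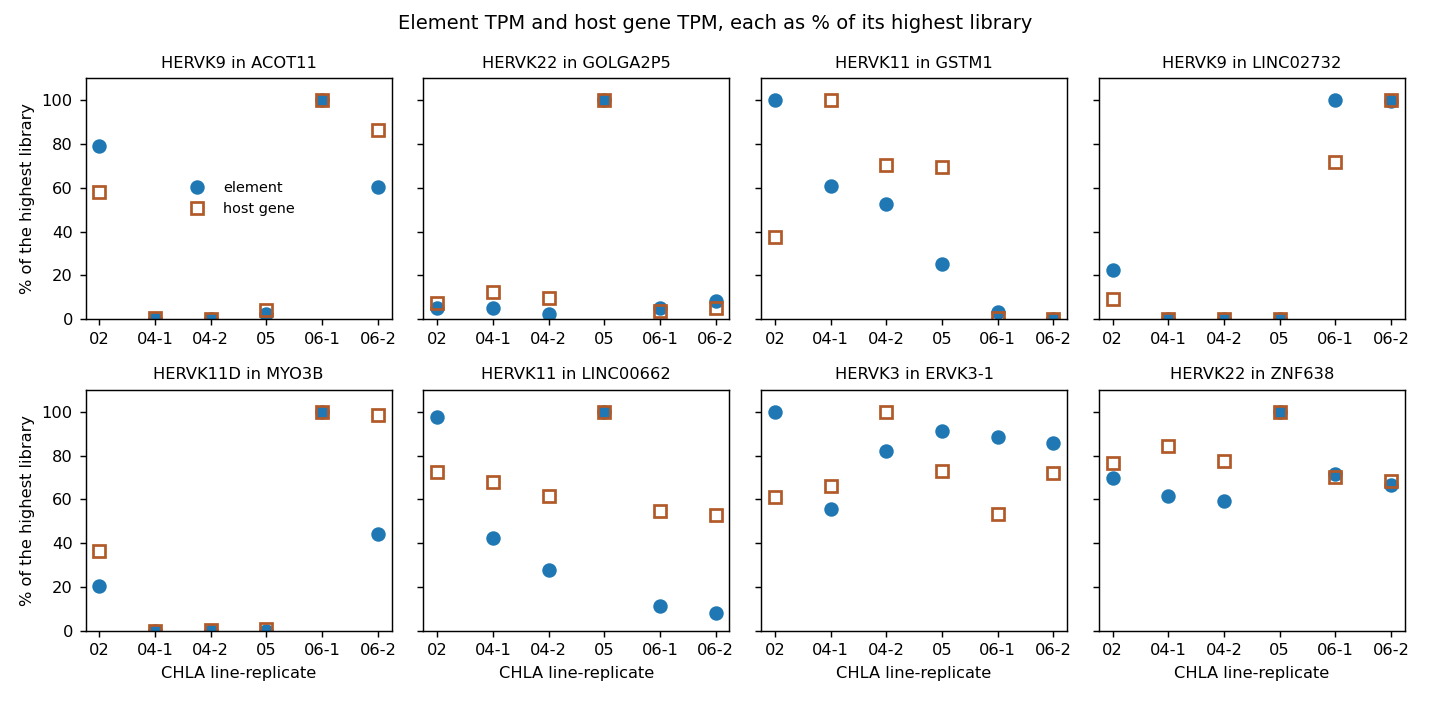
TPM of the most-read named element in each of 8 host genes (filled circles) and TPM of the gene (open squares), each as a percent of its highest library (y axis), in the 6 libraries (x axis). Element and gene have the same high lines at ACOT11, GOLGA2P5, LINC02732 and MYO3B, and at LINC00662 the element is low in CHLA 06 while the gene stays above 50% of its highest value. Where the element overlaps an exon of the gene, as at ACOT11 and GOLGA2P5, reads can count for both.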

How the data were processed

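Total RNA of 4 AT/RT cell lines was sequenced as 6 stranded libraries. The authors trimmed reads with Trimmomatic after CASAVA 1.8.2, mapped them to GRCh38 with the CLCbio Genomics Workbench, and deposited TPM per Ensembl transcript and, from a separate mapping, TPM per RepeatMasker LTR element, scaled over the LTR elements alone. Whole reads came from TPM × length, which moved in equal steps within a library (100% of LTR values within the rounding to 2 decimals, and at least 99.998% exact on simulated data). Recovered depth was 10265899 to 20520229 reads on transcripts and 355302 to 511408 on LTR elements, so 1 read on 1000 bp was worth 0.899 to 1.34 TPM over LTR elements.

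Gene TPM was the sum over transcripts. Host genes, exons and strands came from GENCODE release 44, and sequences from the GRCh38 genome. Detection followed the steps of the study, namely log2(TPM + 2), quantile normalization, a lowess curve through CV and mean expression, and the maximum of technical replicates. The study set its threshold by inspection for the loss of linearity, and here the peak of the curve was used instead. In all other comparisons CHLA 04 and CHLA 06 were the means of 2 technical replicates. Ratios used a floor of 3 reads over a line, shares 95% Wilson intervals. Named elements were the 15 with the highest mean TPM among members with 10 reads, the member with the most reads in each family, and the 12 with the largest ratio among members with 20 reads. Of the first 15, 2 are not reported here. The members, the lists and the rule were chosen with earlier results of these data known. Analyses were run in Python 3.11.15 with pandas 2.3.3, scipy 1.17.1 and statsmodels 0.14.6.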

Additional observations from a re-analysis of the deposited data

How the results depend on the processing

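Counts of members above the noise threshold depended on it, with 414 at the peak of the curve, 235 at TPM 5, 175 at TPM 10 and 132 with a pseudocount of 0.1 and its own threshold. They ranged from 348 to 405 when 1 technical replicate was left out with the threshold kept. Joined into loci, the 145 members with 10 reads became 95, and without 1 replicate they were 138 to 145. Of the members with 20 reads, 75 varied 2-fold and 24 varied 8-fold in place of 38 at 4-fold. With 10 or 50 reads as the minimum, 59 of 145 and 16 of 54 varied 4-fold, and without 1 replicate 38 to 41. The share stayed below that of all LTR elements in each of these settings. Of the member families, 6 varied 1.5-fold and 1 varied 3-fold in place of 3 at 2-fold, and without 1 replicate 2 to 5, the highest without CHLA 04 replicate 2. Of 46 alternatives, 35 left the value within 1.5 times or within the replicate spread. Scaled to transcript reads, 24 of the 31 named elements and 6 of the 9 families had the same highest line. No paired analysis was possible because no test was made and the replicate numbers mark technical replicates of 1 sample per line. At this depth, members under 10 reads in every library gave no usable ratio between lines.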
